A study of Mus musculus with 36 samples.

Results

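Chromatin accessibility after 6 h with LPS was set against that after 6 h with PAM in mouse bone marrow-derived dendritic cells, a ligand of Toll-like receptor 4 (TLR4) against a ligand of TLR2. The 4 libraries of this comparison, 2 with LPS (group L) and 2 with PAM (group P), were chosen by their sample titles from 36 libraries in 18 groups. The assay was ATAC-seq, in which a transposase inserts adapters into open chromatin, so that the reads in a peak measure how accessible that stretch of DNA is. The cells were grown from the bone marrow of female C57BL/6J mice aged 6 to 8 weeks, in medium with 15 ng/mL GM-CSF. Per the labels, each stimulation lasted 6 h and each library started from 50000 cells. All groups carry the same wild-type background and, per the labels, differ in the ligands. Batches of culture or library preparation are not given in the sources used here. The other groups used here are LPS with HMW (LH), PAM with HMW (PH), PAM with LPS (PL), HMW alone (H) and unstimulated cells (Ctrl), each with 2 libraries. HMW is the labels' name for another ligand. Ligand doses are not given in the sources used here. The 2 libraries of a group are numbered replicates that nothing ties to separate mice or cultures, so p-values measure only the spread between such libraries. That spread was estimated over all 36 libraries in one fit, not from the 4 compared libraries alone. GM-CSF cultures of bone marrow hold dendritic cells together with macrophage-like cells, and in a bulk library a change in the mix of cells and a change within cells cannot be told apart.

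TLR4 and TLR2 share one route and differ in another. Both recruit the adaptor MyD88, which leads to the transcription factors NF-kappaB and AP-1 and to inflammatory cytokines and chemokines. TLR4 also recruits the adaptor TRIF (gene Ticam1), with its partner TRAM (Ticam2), from inside the cell; this route activates IRF3 and the gene of interferon beta, Ifnb1. Secreted interferon then acts through its receptor on transcription factors that bind the interferon-stimulated response element (ISRE) at antiviral genes. Genes of chemokines that attract neutrophils, such as Cxcl1, Cxcl2 and Cxcl3 are classical NF-kappaB targets.

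Promoters on both sides of the comparison are printed first, since their letters are referred to below. They are RefSeq windows (GRCm38.p6) from 250 bases before to 50 bases after the start of transcription, 300 bases each, read 5′ to 3′ on the gene's strand. The first 4 lie on peaks that were more accessible with LPS, and capitals mark each match to the ISRE letters GAAANNGAA on either strand. Cxcl10 is at chr5:92348840-92349139 (minus strand), Oas3 at chr5:120777610-120777909 (minus), Ifi213 at chr1:173599223-173599522 (minus) and Ifit1bl1 at chr19:34601919-34602218 (minus). The last 3 lie on peaks that were more accessible with PAM, and capitals mark the match to the NF-kappaB motif. Cxcl1 is at chr5:90890995-90891294 (plus strand), Cxcl2 at chr5:90903649-90903948 (plus) and Cxcl3 at chr5:90785851-90786150 (plus).
Cxcl10: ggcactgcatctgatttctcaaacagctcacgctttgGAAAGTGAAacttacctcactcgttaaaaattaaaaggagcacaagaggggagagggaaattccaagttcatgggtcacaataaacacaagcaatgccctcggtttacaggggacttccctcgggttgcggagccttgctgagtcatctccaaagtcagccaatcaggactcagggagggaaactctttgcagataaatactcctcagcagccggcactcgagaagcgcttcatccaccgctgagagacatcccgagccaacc
Oas3: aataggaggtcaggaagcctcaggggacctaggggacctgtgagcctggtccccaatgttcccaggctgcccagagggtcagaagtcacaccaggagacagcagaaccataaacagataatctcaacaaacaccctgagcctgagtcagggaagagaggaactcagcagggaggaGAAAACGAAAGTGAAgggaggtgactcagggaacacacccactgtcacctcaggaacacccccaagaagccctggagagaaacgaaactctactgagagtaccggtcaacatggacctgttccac
Ifi213: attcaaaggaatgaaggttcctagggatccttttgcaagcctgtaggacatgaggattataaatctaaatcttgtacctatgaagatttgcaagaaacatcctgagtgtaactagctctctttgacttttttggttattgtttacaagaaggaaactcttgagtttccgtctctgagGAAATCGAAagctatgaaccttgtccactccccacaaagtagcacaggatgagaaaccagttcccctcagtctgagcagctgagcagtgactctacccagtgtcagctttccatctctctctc
Ifit1bl1: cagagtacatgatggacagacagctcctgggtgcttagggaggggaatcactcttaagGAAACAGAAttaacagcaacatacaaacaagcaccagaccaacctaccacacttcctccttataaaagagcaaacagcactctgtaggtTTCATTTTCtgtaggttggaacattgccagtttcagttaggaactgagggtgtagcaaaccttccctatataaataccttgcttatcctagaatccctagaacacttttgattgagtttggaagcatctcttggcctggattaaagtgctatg
Cxcl1: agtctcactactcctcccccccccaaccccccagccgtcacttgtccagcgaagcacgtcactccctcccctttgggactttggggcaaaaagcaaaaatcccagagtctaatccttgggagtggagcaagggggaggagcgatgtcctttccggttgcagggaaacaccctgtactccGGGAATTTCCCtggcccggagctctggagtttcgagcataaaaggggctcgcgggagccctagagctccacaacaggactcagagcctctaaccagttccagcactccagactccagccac
Cxcl2: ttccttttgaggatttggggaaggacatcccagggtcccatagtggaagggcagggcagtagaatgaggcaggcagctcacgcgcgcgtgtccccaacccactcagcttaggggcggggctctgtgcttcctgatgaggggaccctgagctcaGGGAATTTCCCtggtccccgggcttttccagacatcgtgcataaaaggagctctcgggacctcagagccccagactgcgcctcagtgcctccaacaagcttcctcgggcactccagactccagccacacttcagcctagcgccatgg
Cxcl3: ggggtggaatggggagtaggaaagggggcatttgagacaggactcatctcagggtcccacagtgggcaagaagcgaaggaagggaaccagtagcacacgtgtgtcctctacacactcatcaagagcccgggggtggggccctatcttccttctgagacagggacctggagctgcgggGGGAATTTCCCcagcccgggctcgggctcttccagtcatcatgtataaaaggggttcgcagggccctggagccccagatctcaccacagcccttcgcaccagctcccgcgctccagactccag
The capitals in Oas3 hold 2 overlapping ISRE matches, and those in Ifit1bl1 mark 2 separate ones. The 3 chemokine promoters carry the same 11 capital letters. Only windows with a match are printed. The windows of Tldc2, Oasl1, Heatr9 and Isg20, also on peaks higher with LPS, hold no ISRE match. On peaks higher with PAM, the windows of Pcdh7 and D230017M19Rik hold 1 ISRE match each. Those of Alyref2, Gtf3c6, Eapp and Clec4e, also on peaks higher with PAM, hold neither motif.

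Exchanging PAM for LPS changed accessibility at 13218 of 119464 tested peaks (11.1%). A peak was called where the adjusted p of edgeR's quasi-likelihood test, Benjamini-Hochberg adjusted over all tested peaks, was under 0.05; every adjusted p below is of this kind. LPS was higher at 6201 peaks (5.19% of those tested) and PAM at 7017 (5.87%). A difference of at least 1 on the log2 scale was found at 3769 peaks with LPS higher (3.15%) and at 3490 with PAM higher (2.92%). The median log2 difference was 1.20 over the first set, -0.997 over the second and 0.01 over all tested peaks. Leaving out 1 library always took the count down by over 1.5 times: it was 7400 without L replicate 1, 7470 without L replicate 2, 8717 without P replicate 1 and 7107 without P replicate 2. With total counts as library sizes in place of TMM factors, LPS was higher at 63.3% of called peaks rather than 46.9%, and the median over all peaks moved to 0.11.

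The most significant peaks with LPS higher lay at or near interferon-induced antiviral genes. At Ifit2 (chr19:34572687-34579247), whose product binds viral RNA, accessibility was 59.0 and 67.5 CPM with LPS and 4.88 and 2.82 CPM with PAM, where CPM is the usual ratio of a peak's count to the scaled size of its library. The control libraries stood at 8.85 and 5.02 CPM there. The groups were far apart, and the PAM libraries were the lowest of the 3 groups; the log2 difference was 4.04 ± 0.15 (SE; adjusted p = 6.9e-59). At Rsad2 (chr12:26438731-26453446), which encodes the antiviral enzyme viperin, the LPS libraries held 121 and 129 CPM and the PAM libraries 31.4 and 34.7 CPM. This is a log2 difference of 1.92 ± 0.09 (adjusted p = 6.22e-46). The peak taken as the promoter of Mx1 (chr16:97443785-97449053), of the dynamin-like antiviral GTPase family, held 66.4 and 63.1 CPM with LPS and 11.2 and 11.7 CPM with PAM. It overlaps no protein-coding gene and lies 849 bases from Bace2. Whether it is at the start or the other end of Mx1 is not given by the gene table. The PAM libraries there lay next to the control libraries, at 10.2 and 10.9 CPM. The log2 difference was 2.50 ± 0.13 (adjusted p = 3.22e-44). A peak over Tldc2 lies within 10 kb of Samhd1, a dNTP hydrolase that restricts viruses, and holds the RefSeq start window of Tldc2. With a peak 3612 bases from Ifih1, the gene of the RNA sensor MDA5, it completed the 5 lowest p-values. The log2 differences of these 2 peaks were 2.41 ± 0.13 and 2.00 ± 0.13.

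**Figure D1:**
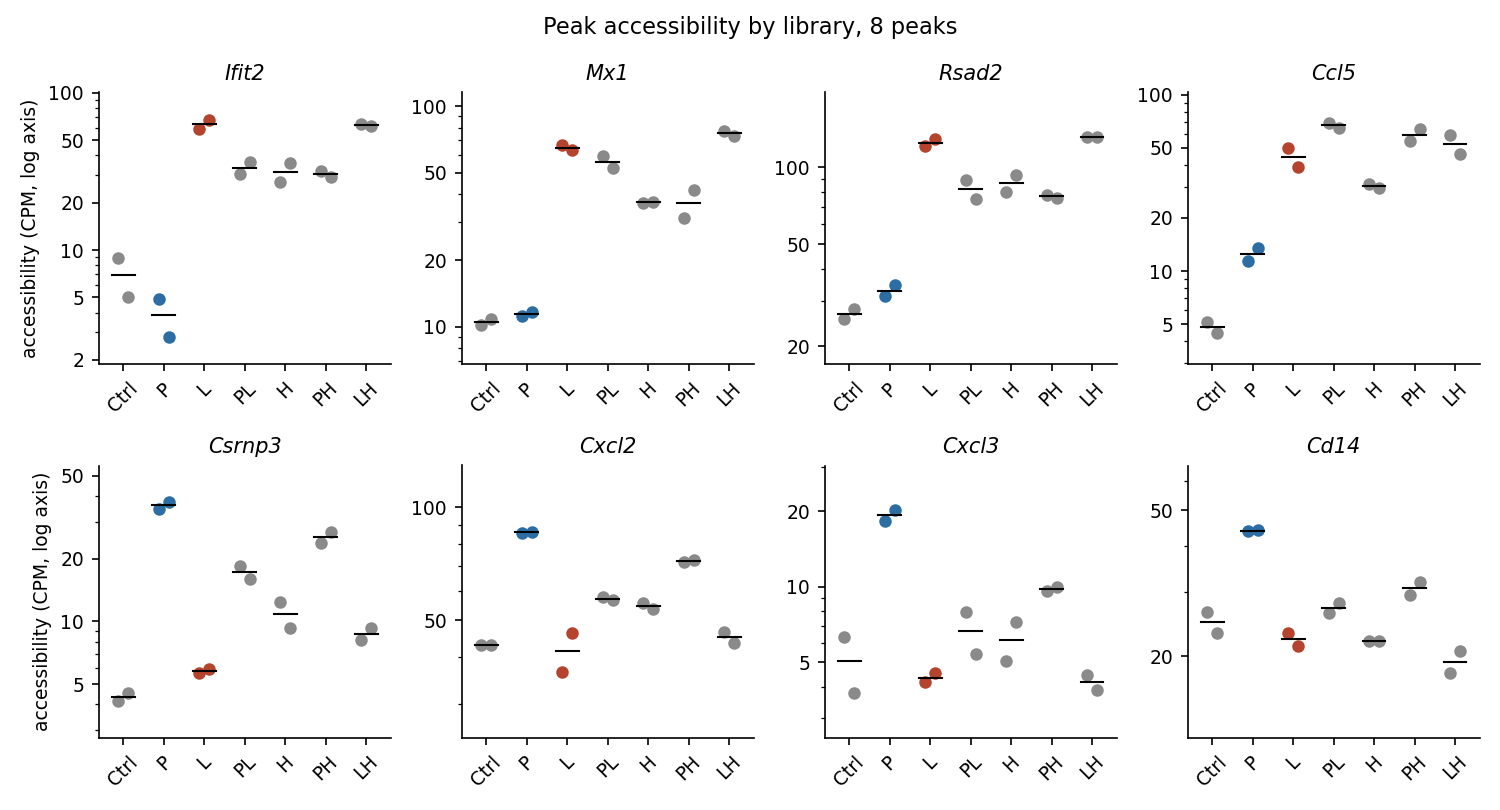
Accessibility (CPM, log axis) of 8 peaks in each of 14 libraries of 7 groups, with the group mean as a bar; red marks LPS alone and blue PAM alone. In the upper row both LPS libraries lie above both PAM libraries, at Ifit2 at 59.0 and 67.5 against 4.88 and 2.82 CPM, and in the lower row both PAM libraries lie above both LPS libraries, at Csrnp3 at 34.6 and 37.3 against 5.65 and 5.93 CPM.

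Across the list of interferon-induced antiviral effectors the difference ran through nearly every promoter. Promoter peaks were taken within 1 kb of the gene start where the RefSeq windows give it (161 of 227 list genes) and of either gene end otherwise. Of 30 promoter peaks, 26 were higher with LPS, 0 were higher with PAM, and 4 did not pass the test (Adar, Ifi35, Trim21 and Trim30a). Their median log2 difference was 0.76. Of all 17044 tested peaks within 1 kb of a gene end, 7.29% were higher with LPS and 3.56% with PAM. Within 10 kb of the same genes, 146 of 311 peaks were higher with LPS and 3 with PAM, with a median log2 difference of 1.14 against 0.01 over all tested peaks. Oasl1, an inhibitor of Irf7 translation, held 47.8 and 42.0 CPM at its promoter with LPS and 12.3 and 14.7 CPM with PAM (log2 difference 1.73 ± 0.12; adjusted p = 4.56e-29). Oas3, which makes the activator of RNase L, held 50.3 and 55.1 CPM with LPS and 19.1 and 22.7 CPM with PAM (1.34 ± 0.12; adjusted p = 1.94e-20). Both pairs of libraries were well apart at these promoters, and the second is the Oas3 window printed above. The ubiquitin-like modifier gene Isg15 was at 20.6 and 24.4 CPM with LPS and 12.5 and 12.1 CPM with PAM (0.88 ± 0.14). The promoter of Rsad2 itself (28.3 and 33.2 against 15.6 and 15.0 CPM) differed by 1.01 ± 0.13, less than the broad peak over its gene body. The promoter of Ifit1 did so by 0.78 ± 0.14. Ifi213 and Ifit1bl1, whose windows are printed above, were no list members; at their promoters LPS gave 16.5 and 15.4 and 16.0 and 16.9 CPM, and PAM 3.59 and 3.11 and 5.04 and 2.74 CPM. The 3 peaks higher with PAM included one inside Parp14 (chr16:35843799-35844675), at 37.5 and 43.0 CPM with PAM and 20.8 and 21.1 with LPS (log2 difference -0.94 ± 0.12), although the Parp14 promoter itself was higher with LPS by 0.74.

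GTPases that attack pathogen vacuoles, the guanylate-binding proteins (GBP) and immunity-related GTPases (IRG), followed the same direction. Of 16 promoter peaks, 9 were higher with LPS and 0 with PAM, against 7.29% and 3.56% of all tested peaks within 1 kb of a gene end. Of 112 peaks within 10 kb, 37 (33.0%) were higher with LPS and 0 with PAM (median log2 difference 0.90). These shares were 5.19% and 5.87% over all tested peaks. The peak taken as the promoter of Iigp1 (chr18:60393002-60394350) lies 368 bases beyond the upper-coordinate end of the gene. Whether that end is the start is not given by the gene table. This peak held 5.30 and 6.90 CPM with LPS against 0.687 and 0.289 CPM with PAM. That is a log2 difference of 3.64 ± 0.42 (adjusted p = 2.06e-12). Irgm1, a regulator of the other IRG proteins, was at 49.6 and 51.5 CPM with LPS and 25.4 and 27.7 CPM with PAM (0.93 ± 0.11; adjusted p = 2.91e-12). Tgtp1 and Tgtp2 differed by 1.89 and 1.78; they are near-identical copies, and how reads that fit both were assigned is not given in the sources used here.

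Upstream of these effectors the difference was smaller. Of 11 promoter peaks of genes that induce type I interferon, 5 were higher with LPS and 0 with PAM; of 124 peaks within 10 kb, 13 were higher with LPS and 0 with PAM. Irf7, the factor that amplifies interferon production, held 36 and 42.4 CPM with LPS and 24.9 and 21.5 with PAM (0.76 ± 0.12; adjusted p = 1.61e-07). Traf3, a ubiquitin ligase of the TRIF route, was at 44.7 and 44.2 CPM with LPS and 27.8 and 24.2 with PAM (0.77 ± 0.12; adjusted p = 5.5e-08). The peak beside Ifnb1 (chr4:88519372-88521906) was weak in every group: 1.77 and 3.77 CPM with LPS, 1.22 and 1.30 with PAM, and 3.28 and 1.83 in the control. Its log2 difference of 1.17 ± 0.33 (adjusted p = 0.00906) was lost when only the compared libraries were fitted, without L replicate 2, without P replicate 1 and without P replicate 2. The adaptor genes Ticam1 and Ticam2 differed by 0.03 ± 0.11 and -0.11 ± 0.17 and did not pass the test. Within 10 kb of the genes of the interferon receptor pathway, 18 of 142 peaks (12.7%) were higher with LPS and 10 (7.04%) with PAM, against 5.19% and 5.87% of all tested peaks. The promoters of Irf1 (0.70 ± 0.12), the feedback inhibitor Socs1 (0.53 ± 0.09) and Usp18 (0.52 ± 0.14) were higher with LPS, and that of the interferon gamma receptor chain Ifngr1 (-0.30) was higher with PAM. The Usp18 call was lost without L replicate 2 and without P replicate 2.

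Among antigen presentation genes the calls fell mostly on the class I pathway. Of 17 promoter peaks, 9 were higher with LPS and 0 with PAM, against 7.29% and 3.56% of all tested peaks within 1 kb of a gene end. Within 10 kb, 20 of 134 peaks (14.9%) were higher with LPS and 3 (2.24%) with PAM, against 5.19% and 5.87% of all tested peaks. The promoter of H2-K1, a class I heavy chain, held 40.4 and 39.6 CPM with LPS and 23.4 and 24.3 with PAM (0.74 ± 0.11). Psmb10, a subunit of the immunoproteasome, was at 26.4 and 28.8 against 13.2 and 15.0 CPM (0.97 ± 0.14), and Tapbp, the peptide-loading chaperone tapasin, at 30.1 and 28.9 against 17.2 and 17.5 CPM (0.77 ± 0.13). The shared promoter of Psmb9 and Tap1 and that of Nlrc5, the class I transactivator, were higher with LPS by 0.63 and 0.68. The class II genes H2-Aa (0.27), H2-Ab1 (-0.06), H2-Eb1 (-0.24) and Cd74 (-0.10) did not pass the test at their promoters, and H2-DMa (0.39) was the class II pathway gene that did. The difference between the pathways was not itself tested. Of 16 promoter peaks of dendritic cell maturation genes, 3 were higher with LPS, those of Cd40 (0.59), Cd274 (0.52) and Il15ra (0.80), and 1 with PAM, that of the adhesion receptor Cd44 (-0.47); within 10 kb these were 23 and 6 of 193 peaks. The costimulatory genes Cd80 (0.15) and Cd86 (0.61) did not pass the test.

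Of all tested peaks, 5.19% were higher with LPS and 5.87% with PAM. Within 10 kb of the chemokine genes, 12 of 94 peaks (12.8%) were higher with LPS and 6 (6.38%) with PAM. Of 17 chemokine promoter peaks, 4 were higher with LPS, 3 with PAM and 10 did not pass the test. The 4 higher with LPS include attractants of T cells and monocytes. The peak taken for Ccl5 (chr11:83521831-83527834) held 49.6 and 39.0 CPM with LPS against 11.4 and 13.5 with PAM (1.82 ± 0.12, adjusted p = 4.56e-29). It overlaps both Ccl5 and Heatr9 and holds the RefSeq start window of Heatr9, so it may not be the Ccl5 promoter. Cxcl10 was at 60.3 and 58.2 CPM with LPS against 25.6 and 20.3 with PAM (1.37 ± 0.11, adjusted p = 1.01e-23). Ccl12 (12.6 and 12.9 against 3.51 and 4.69 CPM; 1.63 ± 0.22) and Cxcl16 (0.71) were also higher with LPS. The 3 higher with PAM encode attractants of neutrophils and carry the NF-kappaB letters printed above. Cxcl2 (chr5:90902942-90907471) held 85.8 and 86.2 CPM with PAM and 36.5 and 46.2 with LPS, beside 42.9 and 43.1 CPM in the control. Cxcl3 held 18.2 and 20.2 CPM with PAM and 4.17 and 4.53 with LPS, beside 6.34 and 3.76 in the control. Cxcl1 was at 8.32 and 7.01 CPM with PAM and 2.76 and 3.07 with LPS, beside 2.19 and 2.22 in the control. For all 3 genes the LPS libraries lay near the control and the PAM libraries above both. The log2 differences were -1.05 ± 0.10 (adjusted p = 2.47e-18), -2.14 ± 0.23 (adjusted p = 6.72e-14) and -1.38 ± 0.27 (adjusted p = 3.89e-05) for Cxcl2, Cxcl3 and Cxcl1. Cxcl5, another neutrophil attractant of the list, stood at -0.00 and did not pass the test. Neutrophil markers had a promoter peak for 2 of 8 genes, summing to 33.3 and 32.6 CPM with LPS and 43.7 and 51.9 with PAM; Cxcr2, Elane, Ltf, Ly6g, Mpo and S100a9 had none, and the part of neutrophils in these values was not tested.

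**Figure D2:**
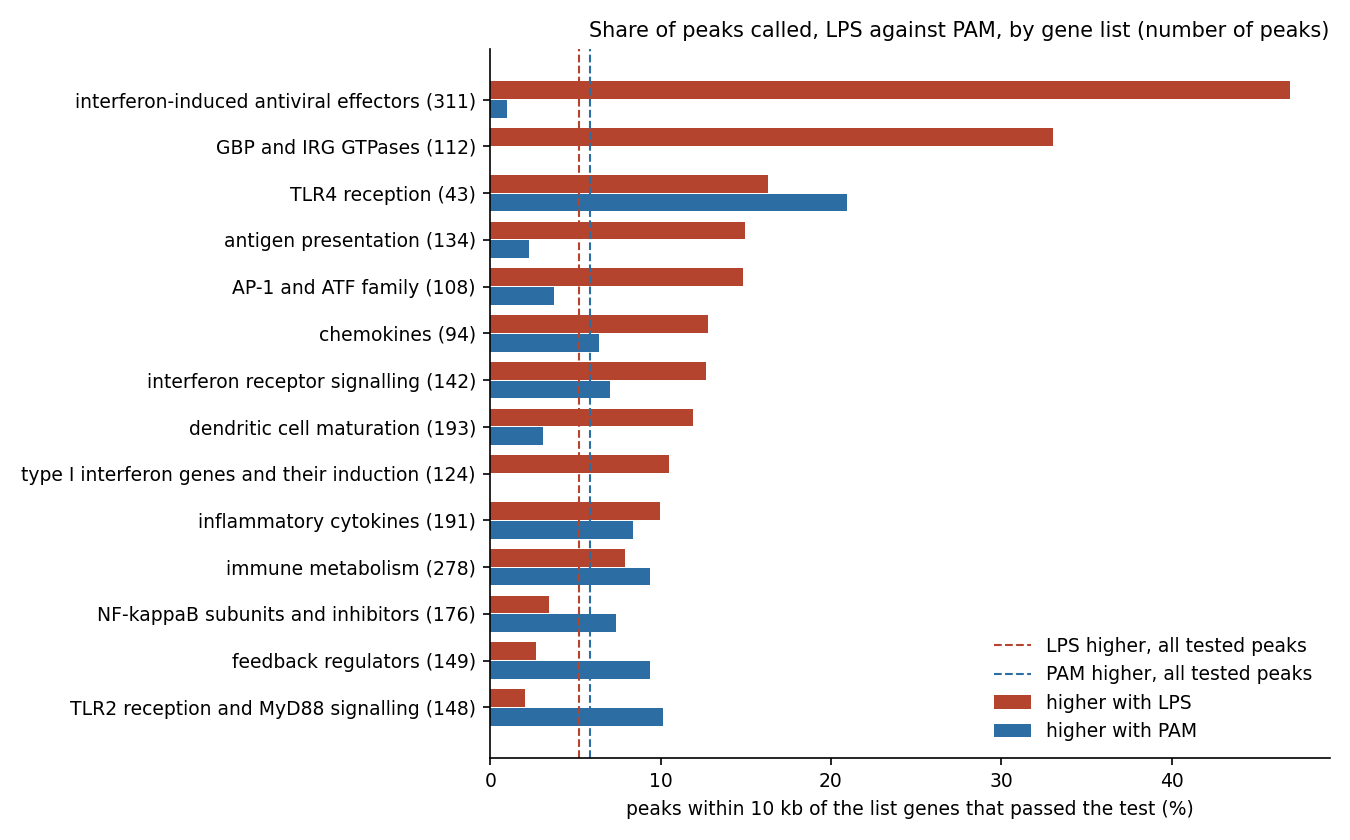
Share of the peaks within 10 kb of the genes of each list that were called higher with LPS (red) or with PAM (blue), with the number of peaks in brackets; dashed lines give the shares over all tested peaks, 5.19% and 5.87%. Antiviral effectors and GBP and IRG GTPases have the highest shares with LPS higher. TLR2 reception, TLR4 reception, immune metabolism, feedback regulators and NF-kappaB genes have more peaks with PAM higher. With total counts as library sizes this turned for feedback regulators (14 with LPS and 8 with PAM higher) and NF-kappaB genes (10 and 6). It also turned for TLR4 reception (8 and 5) and immune metabolism (25 and 19).

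The receptors of both ligands were not more accessible under their own ligand in one uniform way. Tlr4 (49.7 and 44.8 CPM with LPS, 51.7 and 46.9 with PAM) and its partner Ly96 (28.1 and 30.6 against 28.5 and 24.6) did not pass the test. Cd14, the coreceptor that hands LPS to TLR4 and also serves TLR2, was higher with PAM: 43.9 and 44.1 CPM against 23.2 and 21.3 with LPS and 26.3 and 23.2 in the control (-0.99 ± 0.12; adjusted p = 8.15e-11). Tlr2 was at 27.2 and 24.9 CPM with PAM and 17.7 and 18.5 with LPS, beside 25.7 and 21.7 in the control (-0.52 ± 0.14; adjusted p = 0.00364). Here the PAM libraries lay near the control and the LPS libraries below it; the call was lost without P replicate 1. The TLR4-like receptor gene Cd180 and its partner Ly86 were higher with LPS by 0.41 and 0.81. Both calls were lost without L replicate 1 and without P replicate 2, and that of Ly86 without any 1 of the 4 libraries. Of 43 peaks within 10 kb of the TLR4 reception genes, 7 (16.3%) were higher with LPS and 9 (20.9%) with PAM. With total counts as library sizes these counts were 8 and 5. Of all tested peaks, 5.19% were higher with LPS and 5.87% with PAM. Tlr1 (0.52 ± 0.56), Tlr6 (-0.19 ± 0.11) and Myd88 (-0.03 ± 0.09) did not pass the test. Over the list of TLR2 reception and MyD88 signalling, 3 of 148 peaks within 10 kb (2.03%) were higher with LPS and 15 (10.1%) with PAM. One of these was a peak in Irak2, a kinase of the MyD88 complex (12.4 and 12.7 CPM with PAM, 6.01 and 5.50 with LPS). The promoter of Irak3, an inhibitor of that complex, was higher with PAM as well (-0.50 ± 0.12), a call lost without L replicate 2.

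The promoters of several leading inflammatory cytokine genes did not pass the test. Tnf held 53.6 and 61.8 CPM with LPS and 48.9 and 59.8 with PAM, both well above the 23.3 and 22.0 CPM of the control, a log2 difference of 0.09 ± 0.10 (adjusted p = 0.653). Il6 was at 24.9 and 24.2 CPM with LPS and 19.9 and 20.7 with PAM, beside 6.88 and 8.88 in the control (0.27 ± 0.14; adjusted p = 0.201). At both genes the ligands lay close together and far from the control. Il12b (-0.14 ± 0.23) and Il10 (-0.06 ± 0.17) did not pass the test either. Of 20 cytokine promoters, 2 were higher with LPS and 2 with PAM, and within 10 kb 19 (9.95%) and 16 (8.38%) of 191 peaks, against 5.19% and 5.87% of all tested peaks. Il27, a cytokine of the Il12 family that interferons induce, was at 8.69 and 10.8 CPM with LPS and 2.90 and 4.33 with PAM (1.43 ± 0.22; adjusted p = 2.26e-07). Il15, which sustains NK and memory T cells, was at 45.2 and 50.3 against 32.6 and 26.4 CPM (0.70 ± 0.11). Il23a, the subunit particular to IL-23, was higher with PAM at 28.2 and 30.0 CPM against 21.6 and 20.8 (-0.46 ± 0.13); the call was lost with total counts as library sizes, without L replicate 2 and without P replicate 2. Il36g was also higher with PAM (log2 difference -0.64 ± 0.20). A peak in Il12a (chr3:68692895-68694139) was also higher with PAM (25.1 and 22.5 against 11.6 and 11.2 CPM). Of 14 promoters of NF-kappaB subunits and inhibitors, 0 were higher with LPS and 1 with PAM, that of the atypical inhibitor Nfkbiz (-0.34 ± 0.10), which was lost with total counts as library sizes, without L replicate 1 and without P replicate 1. Within 10 kb of these genes 6 of 176 peaks were higher with LPS and 13 with PAM, and with total counts as library sizes this turned to 10 and 6. Feedback regulators had 1 of 16 promoters higher with LPS (Dusp1) and 4 with PAM (Dusp4, Dusp6, Spry2 and Trib1), and 4 (2.68%) and 14 (9.40%) of 149 peaks within 10 kb. The Dusp1 call was lost without any 1 of the 4 libraries, that of Dusp4 without L replicate 1, L replicate 2 or P replicate 1, and that of Dusp6 without L replicate 1; those of Dusp4 and Dusp6 were also lost with total counts as library sizes, that of Dusp1 when only the compared libraries were fitted, and those of Dusp1 and Dusp4 with libraries thinned to one depth. With total counts as library sizes the peaks within 10 kb turned to 14 higher with LPS and 8 with PAM. AP-1 and ATF genes had 7 of 16 promoters higher with LPS and 2 with PAM, Fosl2 (-0.31) and Jun (-0.28), and 16 and 4 of 108 peaks within 10 kb.

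Of the immune metabolism list, 22 of 278 peaks within 10 kb (7.91%) were higher with LPS and 26 (9.35%) with PAM, against 5.19% and 5.87% of all tested peaks (25 and 19 peaks with total counts as library sizes), and single genes differed widely in opposite directions. Nos2 makes nitric oxide. A peak at its upper-coordinate end (chr11:78959292-78963606, also over Lgals9) held 25.6 and 17.7 CPM with LPS and 2.98 and 2.60 with PAM. The PAM libraries lay beside the control at 2.84 and 2.22 CPM, and the log2 difference was 2.95 ± 0.22 (adjusted p = 6.93e-26). The peak at the lower-coordinate end of Nos2 averaged 13.1 CPM with LPS and 8.42 with PAM (0.64 ± 0.20, adjusted p = 0.0211). Which of these ends is the start is not given by the gene table. Within 10 kb of the gene 13 of 19 peaks were higher with LPS. Slc7a11, the cystine importer that feeds glutathione synthesis, went the other way: 17 of 48 peaks were higher with PAM and 0 with LPS. The peak 884 bases from the gene (chr3:50362077-50364052) held 15.2 and 15.8 CPM with PAM and 3.96 and 2.91 with LPS, beside 3.28 in both control libraries (-2.19 ± 0.25; adjusted p = 2.16e-12). The cholesterol genes Abcg1 (0.83 ± 0.17) and Ch25h (1.45 ± 0.40) were higher with LPS at their promoters.

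**Figure D3:**
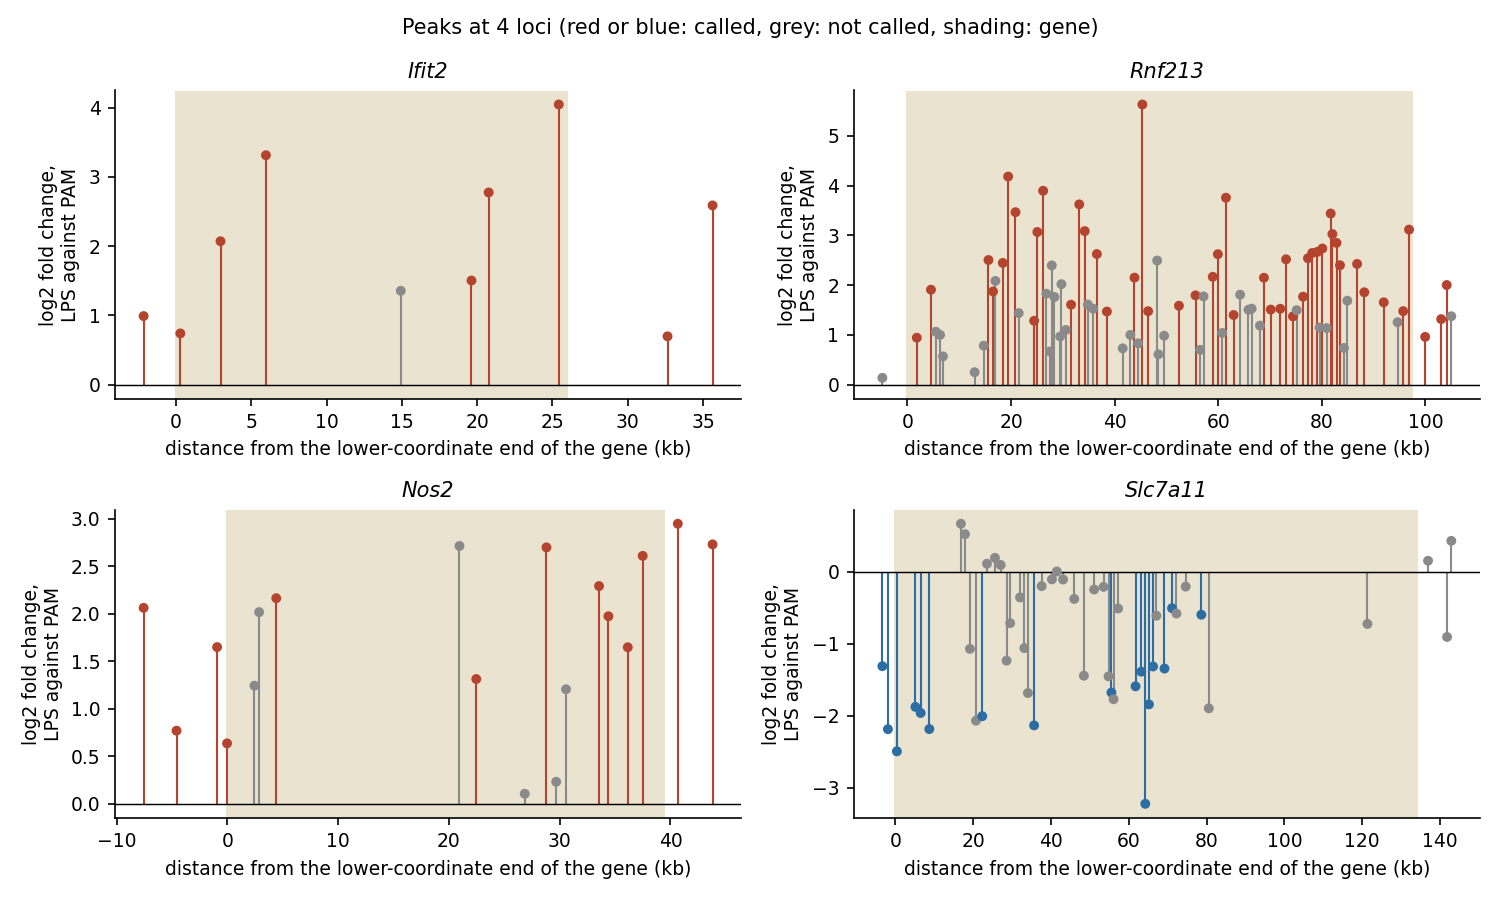
Log2 difference of each tested peak at 4 loci against the distance of its centre from the lower-coordinate end of the gene (kb), with the gene shaded, called peaks in red (LPS higher) or blue (PAM higher) and others in grey. At Ifit2, Rnf213 and Nos2 all called peaks lie above 0 (9 of 10, 46 of 83 and 13 of 19), and at Slc7a11 all 17 lie below it.

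The peaks with the most significant PAM excess lay mostly away from the listed genes. The lowest p was at a peak inside Csrnp3 (chr2:65851729-65852863), with 34.6 and 37.3 CPM with PAM, 5.65 and 5.93 with LPS and 4.15 and 4.53 in the control (-2.63 ± 0.18; adjusted p = 1.69e-28). LPS libraries lay just above the control and PAM libraries far above both. The other 4 were broad, highly accessible peaks: one over Pxn and Sirt4 (158 and 172 against 60.1 and 71.6 CPM; -1.32), one 271 bases from Slfn14 (92.2 and 113 against 45.8 and 42.3; -1.22), one over Tex14 (80.0 and 83.6 against 35.3 and 35.7; -1.20) and one 6780 bases from Kif2c (105 and 113 against 48.1 and 51.7; -1.13). Among listed genes, a peak near Tnfsf15, a TNF family ligand, held 15.8 and 15.6 CPM with PAM and 4.24 and 2.21 with LPS (-2.31 ± 0.26), and one near the AP-1 gene Fosl2 held 16.3 and 21.8 against 7.28 and 6.58 (-1.46 ± 0.21). The promoter of Clec4e, the receptor Mincle for mycobacterial glycolipid, was at 46.1 and 43.8 CPM with PAM and 22.6 and 21.2 with LPS (-1.04 ± 0.12).

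Apart from Ifit2, the 8 highest and 8 lowest log2 differences came from weak peaks, all under 10 CPM in the LPS and PAM libraries. A peak 93700 bases from Emb had 0 counts in both PAM libraries and 1.55 and 2.80 CPM with LPS, which makes LPS at least 19.6-fold higher against a floor of 3 counts. The 8 highest also held 2 peaks at the antiviral gene Cmpk2 (log2 differences 4.91 ± 0.69 and 4.26 ± 0.54), 1 at Rnf213 (4.18 ± 0.66), that of Ifit2, and peaks at Fbn1 (4.40), at Wdfy1 (4.12) and near Plekhf2 (4.07). Wdfy1 encodes an adaptor that has been linked to TRIF signalling. The 8 lowest were near Cyp7b1 (-4.06 ± 0.68), Lmo4 (-3.97), Mterf1b (-3.78) and Tmem164 (-3.45), at Ppef2 (-3.73), Veph1 (-3.72) and Cyb5r4 (-3.67), and near Gsx2 (-3.40). At Cyb5r4, PAM gave 8.77 and 8.88 CPM and LPS 0.283 and 1.02 CPM. The Gsx2 call was lost without L replicate 2.

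Position differed between the directions. Of the peaks on chromosomes with annotated genes, 20.1% of those higher with LPS lay within 1 kb of a gene end (95% exact interval 19.1% to 21.1%), against 8.64% of those higher with PAM (7.99% to 9.32%) and 14.3% of all tested peaks. Gene ends rather than starts were used because the gene table gives no strand. Over 10 kb from any gene lay 23.1% of the peaks higher with LPS, 34.4% of those higher with PAM and 26.7% of all. Among differences of at least 1 on the log2 scale the shares near gene ends were 9.65% with LPS higher and 4.73% with PAM higher, both under the 14.3% of all tested peaks. Calls also grew with abundance, from 2.05% and 2.02% (LPS and PAM higher) among the 23893 peaks of lowest mean CPM to 9.40% and 11.9% among the 23893 of highest.

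In 14484 RefSeq promoter windows that lie on tested peaks, the ISRE letters were more frequent on peaks higher with LPS than on peaks higher with PAM. They occurred in 12.5% of 1145 windows on peaks higher with LPS (95% exact interval 10.6% to 14.5%), in 6.31% of 523 windows on peaks higher with PAM (4.38% to 8.75%), in 7.42% of all windows on tested peaks and in 8.56% of all 32851 windows of the table. The NF-kappaB motif occurred in 13.5%, 11.7% and 10.9% of the first 3 sets, and the AP-1 letters TGANTCA in 6.46%, 8.60% and 5.71%. The gamma-activated site TTCNNNGAA (7.51%, 7.27% and 6.80%), the PU.1 letters GAGGAAGT (2.62%, 4.78% and 3.62%) and the C/EBP letters TTGCGCAA (0.175%, 0% and 0.318%) were searched too, all on both strands; a match to one motif may overlap a match to another. Windows of one gene can overlap, a match is not a bound site, and the intervals cover counting error only. At the single promoters, Cxcl10 and Oas3 held ISRE, NF-kappaB and AP-1 matches together, and Cxcl1, Cxcl2 and Cxcl3 the NF-kappaB motif alone of the 6.

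**Figure D4:**
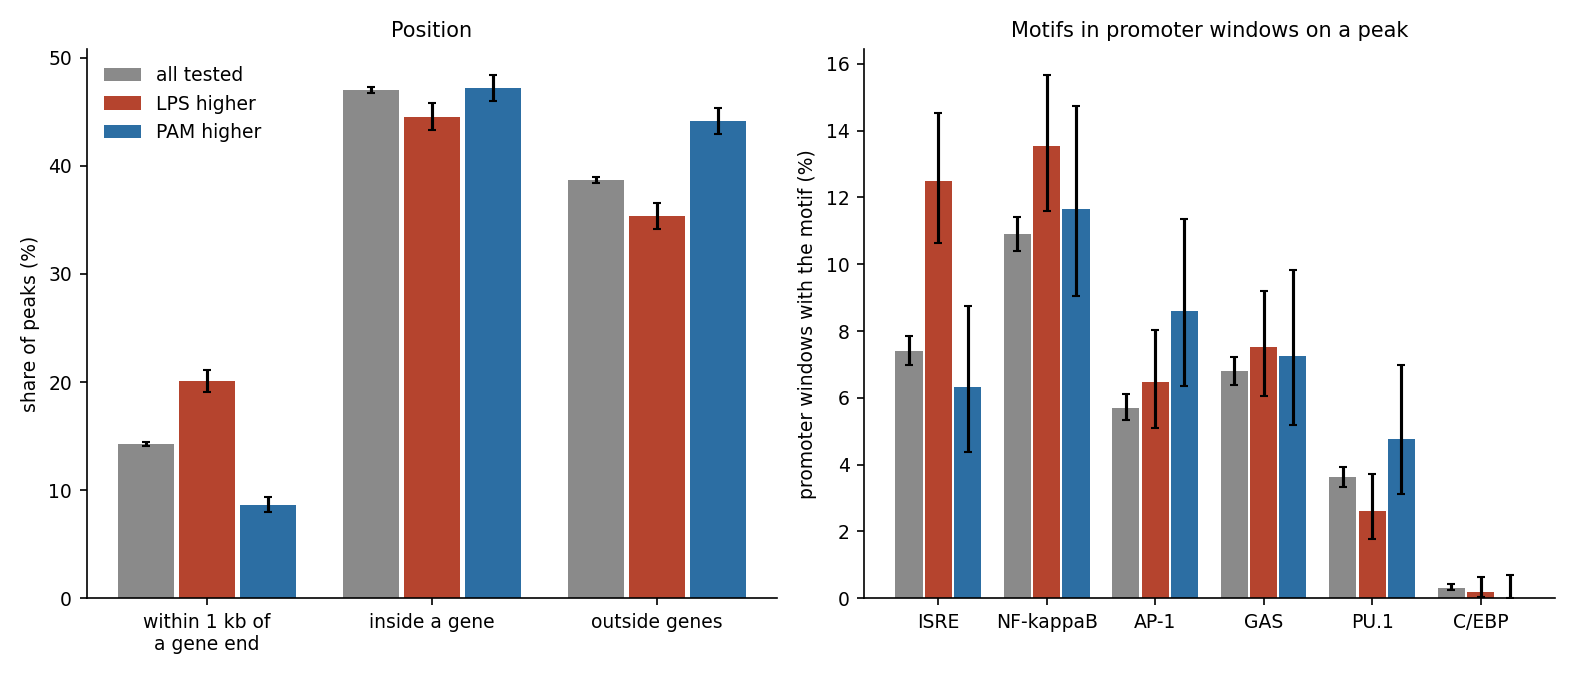
Left, share of peaks by position for all tested peaks (grey), peaks higher with LPS (red) and peaks higher with PAM (blue); right, share of promoter windows on such peaks that hold each motif; bars start at 0 and error bars are 95% exact binomial intervals. Peaks higher with LPS lie more often within 1 kb of a gene end (20.1%) than those higher with PAM (8.64%), and their windows hold the ISRE letters more often (12.5% against 6.31%).

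The same exchange was made in the presence of HMW, in 4 libraries that the comparison above does not use. It changed far fewer peaks: 1024 between LH and PH (0.857% of those tested), of which 306 were higher in LH (0.256%) and 718 in PH (0.601%). The direction was kept: LH lay above PH at 80.1% of the 6201 peaks higher with LPS, against 50.9% of all tested peaks, and below PH at 86.5% of the 7017 peaks higher with PAM, against 49.1% of all. All calls at these peaks had the same sign, with 213 of the first set and 550 of the second called. The median differences were 0.27 and -0.35, beside 1.20 and -0.997 without HMW; the peaks were chosen by the latter difference, which by itself makes the latter values larger. Leaving out 1 library took the count between LH and PH to 210 without LH replicate 1, 224 without LH replicate 2, 231 without PH replicate 1 and 354 without PH replicate 2. Over the 13218 called peaks the 2 differences correlated at r = 0.65, and at 0.31 over all tested peaks, a description across peaks that are not independent.

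**Figure D5:**
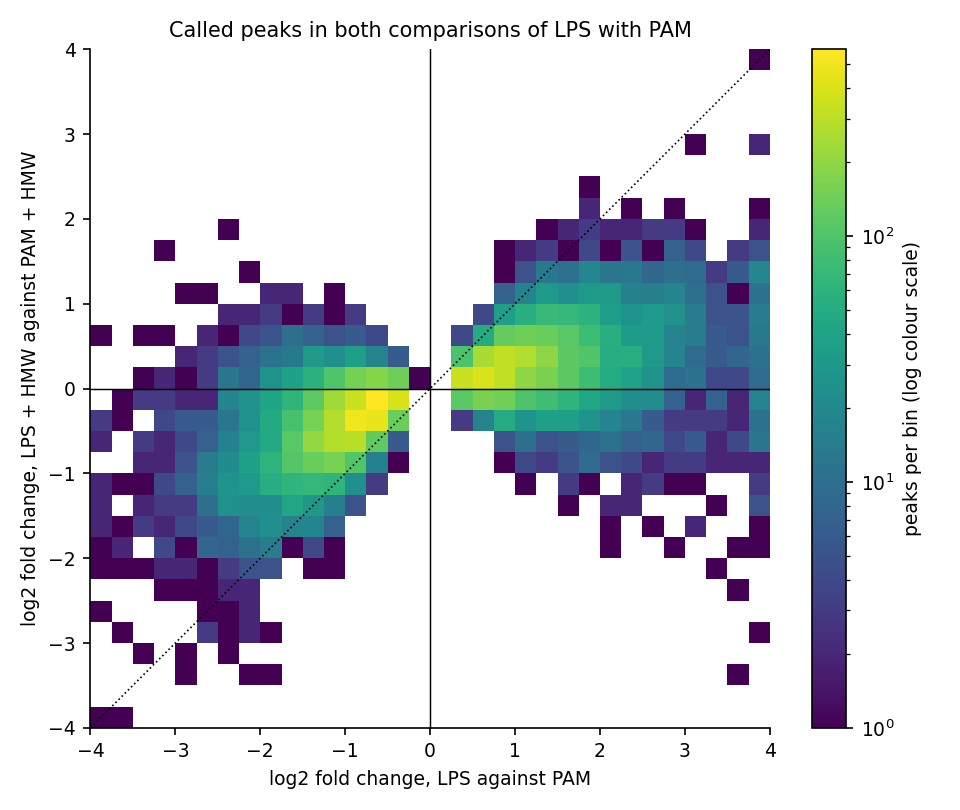
Number of called peaks (log colour scale) by their log2 difference between LPS and PAM (horizontal) and between LPS with HMW and PAM with HMW (vertical), in bins of 0.25 log2 units with values beyond 4 placed in the outermost bins; the dotted line marks equal differences. Most peaks lie on the same side of 0 in both comparisons (80.1% of those higher with LPS and 86.5% of those higher with PAM), with medians with HMW of 0.27 and -0.35 against 1.20 and -0.997.

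Whether the difference between LPS and PAM depended on HMW was tested as an interaction. It passed at 636 peaks (0.532%), with LPS less PAM more positive without HMW at 454 (0.38%) and more negative at 182 (0.152%). Of these, 434 were among the peaks higher with LPS and 172 among those higher with PAM. Without 1 library this count lay between 279 (without PH replicate 1) and 480. At peaks higher with LPS the median was 5.46 CPM in L and 5.09 in LH, but 2.29 in P and 4.02 in PH. The HMW group alone stood at 4.26 CPM and the control at 2.88. At peaks higher with PAM the median was 8.96 CPM in P and 6.80 in PH, and 4.33 in L and 5.05 in LH. Both sets of peaks were chosen by L against P, which by itself sets L and P apart but not LH and PH. That choice by itself also favours interaction calls among these peaks. At Ifit2 the log2 difference of 4.04 became 1.04 with HMW, with 63.1 and 61.3 CPM in LH and 31.8 and 29.0 in PH (interaction 3.01, adjusted p = 2.18e-29). At Ccl5 it went from 1.82 to -0.17, with 59.5 and 46.0 CPM in LH and 54.5 and 64.3 in PH (interaction 1.99, adjusted p = 4.17e-21). Oasl1 went from 1.73 to 0.02 (interaction 1.71, adjusted p = 7.16e-17). Of the antiviral list's 311 peaks within 10 kb, 48 passed the interaction with LPS less PAM more positive without HMW. Among peaks higher with PAM, the difference near Kif2c went from -1.13 to -0.19 (interaction -0.94, adjusted p = 6.85e-07) and that at Tex14 from -1.20 to -0.40 (interaction -0.81, adjusted p = 0.000197). Cxcl2 went from -1.05 to -0.68 (46.6 and 43.6 CPM in LH, 71.8 and 72.6 in PH), Cd14 from -0.99 to -0.67 and the Slc7a11 peak from -2.19 to -1.73; their interactions did not pass the test (adjusted p = 0.242, 0.564 and 0.732). At Csrnp3 it went from -2.63 to -1.55 and did pass (adjusted p = 0.0146).

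Cells given both ligands lay nearer to those given LPS in the number of called peaks: 1347 peaks differed between PL and L (1.13%) and 10106 between PL and P (8.46%). These comparisons share the L and P libraries with the one above. The sets of peaks were chosen by L against P, which by itself moves the L and P medians apart around that of PL. At peaks higher with LPS the median in PL was 4.70 CPM, between 5.46 in L and 2.29 in P; at peaks higher with PAM it was 5.56, between 4.33 and 8.96. At Cxcl2, PL held 57.9 and 56.5 CPM, above L and below P. At Csrnp3 it held 18.5 and 16.0 CPM, again between them, and at Mx1 59.6 and 52.5 CPM, just under L. At Ccl5 both PL libraries, at 69.1 and 65.1 CPM, lay above both L and both P libraries, and the same held at Nos2 with 27.4 and 35.5 CPM.

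Total counts were 22427354 and 29594452 in L and 25421435 and 25162520 in P, within the 19097027 to 39977088 of all libraries. A peak over the mitochondrial genome took 44.6% and 44.1% of them in L and 50.5% and 48.5% in P, and was left out. In the control libraries it took 61.9% and 60.1%. A single peak on chromosome 1 (chr1:24611386-24616337) then held 13.5% and 13.2% of the remaining counts in L and 17.1% and 15.7% in P. This share moved in the same direction as the mitochondrial share, and whether its reads are of mitochondrial origin was not tested. On average 17 peaks were over 1000 CPM, and without them in the library sizes total-count scaling gave 53.4% of calls with LPS higher. The TMM factors were 1.14 and 1.12 in L, 1.04 and 1.07 in P and 0.816 and 0.866 in the control. The part of these library differences in the values set beside the control was not tested. The dendritic cell markers had promoter peaks for 8 of 8 genes, summing to 125 and 129 CPM in L and 125 and 138 in P; pan-myeloid (6 of 6) and macrophage (6 of 6) markers had them too. The pan-myeloid markers summed to 178 and 182 CPM in L and 151 and 155 in P, with 3 of 6 higher with LPS and 1 with PAM. T cell (1 of 8), B cell (2 of 7), NK cell (2 of 5) and mast cell (2 of 7) markers had few, without Cd3e, Ncr1 or Fcer1a among them. Not all other sets had few: erythroid and megakaryocyte markers had promoter peaks for 5 of 7 genes, without Gata1 and Hba-a1. Stromal markers had them for 3 of 6, without Cdh5, Col1a2 and Pecam1. In both of these sets 0 were higher with LPS and 0 with PAM. Macrophage markers summed to 128 and 129 CPM in L and 118 and 123 in P, with 2 of 6 higher with LPS, and the part of these markers in the results was not tested.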

How the data were processed

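The data are ATAC-seq peak counts. The authors deposited one table of unnormalized counts, whole numbers in all 36 libraries, over 119751 peaks; 0 per-sample columns were left unused. Per the submitters' processing notes, the tools were Bowtie2 2.2.9, MACS2 1.4, bedtools and featureCounts, with mm10; their roles, the treatment of duplicate and multiply mapping reads, any shift of read ends and whether peaks were called on pooled libraries are not given in the sources used here. Per the labels' protocols, libraries had 12 cycles of amplification, without molecular identifiers, so intervals cover counting error only.

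Groups came from sample titles. The peak over the mitochondrial genome was left out, filterByExpr (minimum count 10) dropped 286 peaks, and counts were scaled by TMM. The test was edgeR 4.0.16 quasi-likelihood (glmQLFit, robust, with trended dispersions) under R 4.3.3, with all 36 libraries in one fit (18 residual degrees of freedom) and Benjamini-Hochberg adjustment over 119464 peaks. The contrasts were L - P, LH - PH, their difference, PL - L and PL - P. CPM divide each count by the TMM-scaled total of the remaining counts, in the usual unit. The script was tested on simulated data. Replicates were compared: libraries of one group differed by more than sampling noise (chi-square per degree of freedom 2.41 in L and 2.67 in P), with Pearson r of 0.948 in L and 0.938 in P, against 0.897 to 0.908 between an L and a P library.

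Genes were assigned from a RefSeq table (GRCm38.p6). Named peaks were the 8 highest and 8 lowest log2 differences among called peaks with at least 1 CPM on average and groups that did not overlap, the 5 lowest p-values in each direction, the 3 lowest p-values among called promoters and the called locus peak of lowest p in each direction of each list, and a fixed set of receptor, adaptor and target genes. Some of the named genes are not reported here. Cxcl1, Cxcl3, Ifi213, Ifit1bl1, Clec4e and other list genes given with a value were named after their values were seen. The comparison and the gene lists were chosen with earlier results of these data known. A motif search in the middle of the peaks was planned; without a genome it was made in RefSeq promoter windows instead, a choice made after seeing the data, as were the newer edgeR method and the library sizes without the peaks over 1000 CPM. Alternatives were other scalings, no filter, DESeq2 1.42.0, a fit of the compared libraries only, a replicate block, the mitochondrial peak kept, libraries thinned to one depth, stricter thresholds, other distances and each replicate left out.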

Additional observations from a re-analysis of the deposited data

Results flagged for a closer look

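The difference between LPS and PAM differed between cells without and with HMW at 636 peaks, by a test of that difference itself. The named peaks below were chosen by LPS against PAM without HMW, which by itself makes the difference without HMW larger. They are those of the highest and lowest log2 differences and of the lowest p-values that passed the interaction test. It did not pass near Plekhf2, Lmo4, Mterf1b and Gsx2 or at Ppef2, Veph1 and Cyb5r4. Among the named peaks with LPS higher, the difference was larger without HMW by 6.44 on the log2 scale near Emb, a value that rests on 0 counts in both PAM libraries and is no bound. It was larger by 4.29 and 3.555 at the 2 Cmpk2 peaks, by 4.44 at Fbn1, 4.58 at Rnf213, 3.29 at Wdfy1 and 3.01 at Ifit2. At the peaks of lowest p it was larger by 1.15 at Rsad2, 1.45 at Mx1 (the peak beside Bace2), 1.67 at Tldc2 and 1.435 near Ifih1. Among the named peaks with PAM higher, the difference of LPS less PAM was more negative without HMW: by -3.74 near Cyp7b1, -2.80 near Tmem164, -1.08 at Csrnp3, -0.84 at Pxn and Sirt4, -0.80 near Slfn14, -0.81 at Tex14 and -0.94 near Kif2c.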

How the results depend on the processing

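Of the 6201 peaks called with LPS higher, 1442 (23.3%) were called in the same direction in every alternative that refitted L against P, and 3675 (59.3%) in every one that kept both replicates; for the 7017 with PAM higher these were 1785 (25.4%) and 3901 (55.6%). The count for L against P (13218) lay between 9860 (thinned libraries) and 16247 (newer edgeR method) in alternatives that kept both replicates and the threshold, was 11696 with DESeq2, fell to 7134 at an adjusted p under 0.01, and lay between 7107 and 8717 with 1 library left out. By direction and size, leaving out 1 library gave 3375 to 3947 peaks with L higher, 3732 to 4770 with P higher, 2394 to 2769 with L higher by at least 1 and 2127 to 2886 with P higher by at least 1. For LH against PH (1024) the count was 1816 with the compared libraries alone, 567 after thinning, 1913 with the newer method and 210 to 354 with 1 library left out. For L against P by presence of HMW (636) it was 355 after thinning and 279 to 480 with 1 library left out. For the gene lists, L against P (469 called peaks) it was 299 to 338 with 1 library left out. Near gene ends lay 17.2% and 6.79% (L and P higher) within 500 bases, and 25.7% and 12.3% within 2 kb. The replicate numbers do not pair the samples: deviations of same-numbered libraries correlated at -0.03 between L and P and at 0.01 between LH and PH, and with the replicate block 13151, 1020 and 645 peaks were called in the 3 contrasts. Of the values of named peaks under alternatives, 1379 kept direction and call, 49 lost the call and 12 turned sign, all at peaks that were not called: Tlr4 (0.039 with total counts; -0.15 to 0.0091 with 1 library left out), Ticam1 (-0.021 to 0.068 with 1 library left out), Myd88 (0.074 with total counts, 0.015 with total counts without the peaks over 1000 CPM; -0.11 to 0.027 with 1 library left out), Tnf (-0.050 to 0.23 with 1 library left out), Il12b (-0.28 to 0.014 with 1 library left out) and Il10 (0.040 with total counts; -0.36 to 0.15 with 1 library left out). The cause of these changes was not tested, apart from the fewer samples or counts that leaving out and thinning themselves bring.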

Other observations

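Some loci held many called peaks. They were chosen after their values were seen, by the number of called peaks within 10 kb. Of all tested peaks, 5.19% were higher with LPS and 5.87% with PAM. At Rnf213, the gene of a large ubiquitin ligase with antimicrobial activity, 46 of 83 peaks were higher with LPS and 0 with PAM, with a median log2 difference of 1.65; with HMW the median difference was -0.10 and 0 peaks were called. Oasl1 had 16 of 20 peaks higher with LPS (0 of them called between LH and PH), Cmpk2 14 of 17 and Il15 11 of 18. Hk3, a hexokinase gene of myeloid cells, and its neighbour Unc5a each had 10 peaks higher with LPS, of 14 and 16, and 3 of them were also called higher in LH than in PH at each. Psap, the gene of the lysosomal protein prosaposin, had 10 of 21.

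Loci with many peaks higher with PAM were not on the lists of interferon or chemokine genes. Of all tested peaks, 5.87% were higher with PAM. Besides Slc7a11, these loci included Asap1 (12 of 70, with 2 higher with LPS), Arid1b (11 of 56) and Pde4d (11 of 89). Their median log2 differences were small, at -0.21, -0.05 and -0.30. Others were Unc5c (9 of 17, median -1.27) and Dach1 (9 of 24, median -0.70). Itgb8, the gene of an integrin chain that activates TGF-beta, had 8 of 15 (median -0.96). At Slc1a2, a glutamate transporter gene, 9 of 36 peaks were higher with PAM and 8 were higher in PH than in LH, with medians of -0.40 and -0.68. The called peaks counted at Unc5a and Unc5c, netrin receptor genes of one family, thus went in opposite directions. Windows of neighbouring genes can share peaks, and the peaks counted at Unc5a were not separated from those counted at Hk3.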
